A study of Mus musculus with 6 samples.

Results

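Genes that low oxygen is known to switch on through hypoxia-inducible factor (HIF), none of them an enzyme of glycolysis, were followed: Bnip3, Bnip3l, Higd1a, Fam162a, Ero1l, Adm, Ak4, Bhlhe40, Vegfa and Ndrg1. They are 10 rows of the 31097 in the deposited table, each found by its symbol in the row's name, and none shares its row with another gene. The genes were chosen on the difference between the 2 groups in earlier results from these libraries, so their own differences are given as a description, with no test. RNA was sequenced from 3 libraries of wild-type (WT) 3T3-F442A cells and from 3 libraries of the same line with the SWELL1 gene (Lrrc8a, which encodes a part of the anion channel that opens when cells swell) disrupted by CRISPR/Cas9 (SWELL1 KO). 3T3-F442A is a mouse line of preadipocytes, called an adipocyte line by the labels. Both groups were grown in RPMI with fetal bovine serum, and the sources used here do not give oxygen, cell density or any differentiation step. The labels call the libraries of a group biological replicates without saying whether they came from separate cultures, so p-values here reflect only how these libraries spread. They do not say how many KO clones were sequenced, and the sample names of the KO libraries alone carry the mark D3, whose meaning is not given. The genotype, the clone and whatever that mark stands for cannot be told apart. The row of Lrrc8a is shared with other genes, so the knockout could not be checked by its level.

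HIF is a pair of proteins, an oxygen-regulated alpha subunit and a stable beta subunit. In well-oxygenated cells prolyl hydroxylases mark the alpha subunit, and VHL directs it to the proteasome. When oxygen is short the alpha subunit escapes, pairs with the beta subunit and binds the core motif ACGTG or GCGTG in the DNA of its targets. The best known targets raise glycolysis. Those described here act elsewhere: they remove or adjust mitochondria, form disulfide bonds in the endoplasmic reticulum, send signals to blood vessels or regulate other genes.

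The stretches below show where that core motif stands before the start of the 5 genes for which such a stretch overlaps no annotated exon. Each is written 5′ to 3′ on the strand of its gene, from the RefSeq promoter windows (GRCm38.p6), with the core motif in capitals on either strand (ACGTG or GCGTG, or their complements CACGT and CACGC). Positions count back from the last base before the RefSeq transcription start, which is -1. For Ero1l that start lies inside the GENCODE span of the gene, so its stretch does too.

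Bnip3, minus strand, chr7:138909525-138909635, from -129 to -19: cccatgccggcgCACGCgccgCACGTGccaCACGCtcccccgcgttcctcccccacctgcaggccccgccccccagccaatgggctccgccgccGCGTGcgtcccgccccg

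Fam162a, minus strand, chr16:36071595-36071654, from -93 to -34: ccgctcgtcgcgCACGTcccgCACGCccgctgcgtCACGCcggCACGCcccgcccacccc

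Ero1l (Ero1a in RefSeq), minus strand, chr14:45318619-45318702, from -130 to -47: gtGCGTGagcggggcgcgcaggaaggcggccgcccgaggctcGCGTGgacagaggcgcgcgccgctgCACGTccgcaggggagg

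Adm, plus strand, chr7:110627555-110627619, from -102 to -38: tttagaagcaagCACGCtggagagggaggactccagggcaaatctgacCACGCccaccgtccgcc

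Ak4, plus strand, chr4:101419203-101419269, from -86 to -20 for the first of its 4 windows: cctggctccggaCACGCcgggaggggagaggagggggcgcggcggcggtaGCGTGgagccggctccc

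A promoter window, 250 bases before to 50 after the start, was matched for 7 of the 10 genes, and each of the 7 held ACGTG or GCGTG on one strand or the other. Of 17492 protein-coding genes with a window, 52.3% held it, so a single match is common. The number of matches set Fam162a and Bnip3 apart from most genes. Fam162a had 6 in a window, a number that 1.0% of protein-coding genes reached, and Bnip3 had 5, which 2.5% reached. The stretch of Fam162a printed above holds 4 of its 6. The window of Fam162a also reaches into the neighbouring gene Ccdc58, described below. The shares of protein-coding genes were not matched for base composition. The Bnip3 stretch holds the E-box CACGTG, in which the same letters read as ACGTG on both strands and count as 2 matches. Ak4, Ero1l and Higd1a had at most 3 matches in a window (12.8% of protein-coding genes had as many), and Adm and Vegfa at most 2 (27.3%). Ak4 reached 3 only in a window inside the gene, where a CACGTG counts as 2, and its other windows held 2 each. The window of Higd1a lies inside the GENCODE span of that gene. The window at the main start of Vegfa held none, and the matches lie in a second window inside the gene. Bnip3l, Bhlhe40 and Ndrg1 had no window in the table used. A match describes these letters and is not a measured binding site.

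Levels are in FPKM, fragments scaled to the length of the transcript and to the depth of the library, so genes can be set side by side. Estimated depth was 17.2M to 20.8M fragments in WT and 18.4M to 25.9M in KO. The row AC166252.2 alone accounted for 16.7% to 23.7% of the FPKM sum in KO and at most 2.1% in WT. Preadipocyte and fibroblast markers summed to 5350 to 6050 FPKM in WT and 4260 to 4390 in KO, most of it Col1a1, Col1a2, Col3a1 and Dlk1. Of these markers Pdgfrb and Col3a1 were higher in KO, and Pdgfra, Dlk1, Col1a1, Col1a2 and Thy1 lower. Cd34 was at most 0.611 FPKM in any library. Mature fat cell markers summed to 144 to 203 FPKM in WT, most of it Fabp4, and to 9.03 to 10.4 in KO, with Lep listed at 0 in every library. Of 5 tested fat cell markers 4 were lower in KO. The groups overlapped for the other, Lipe (7.01 ± 0.76 FPKM in WT, 6.22 ± 0.54 in KO), which made up most of the KO sum. At most 1 marker each of endothelium, macrophages and epithelium reached 1 FPKM in a library. The part of the fat cell markers in the results below was not tested, and in bulk RNA fewer cells with a transcript and less of it per cell cannot be told apart.

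All 10 genes were lower in KO, and in each the highest KO library lay below the lowest WT library. The mean WT level was 1.63 to 12.2 times the mean KO level, with a median of 4.46. Of the genes, 9 were at least 2-fold lower and 6 at least 4-fold lower in the values as deposited. Over the whole table, 40.3% of 10515 tested rows were lower in KO without overlap of the groups, and 11.3% were so and at least 2-fold lower. Because this contrast chose the genes, nothing is read from their count against those shares. Each gene had at least 2.91 FPKM in every library, so all 10 passed the filter on low values through either group. The plot of levels by library shows the gap between the groups for each gene.

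**Figure D1:**
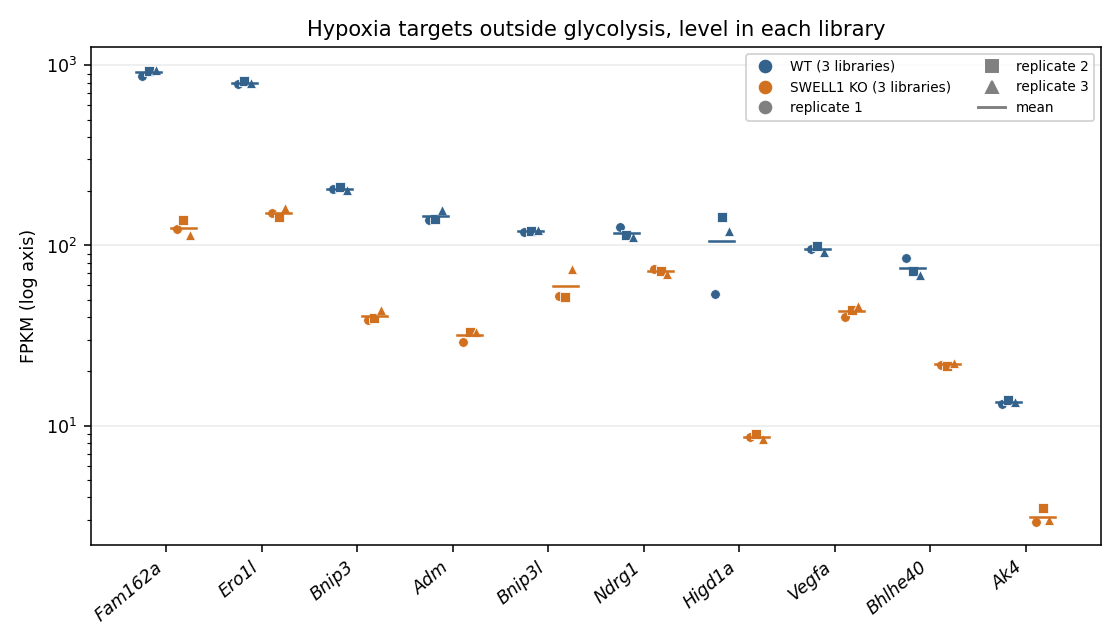
Level of the 10 genes in FPKM (log axis) in the 3 WT libraries (blue) and the 3 SWELL1 KO libraries (orange), genes in order of their WT mean. Marks show replicates and lines show means; every KO mark lies under every WT mark of its gene, with the means farthest apart in Higd1a (106 against 8.67 FPKM) and nearest in Ndrg1 (117 against 71.7 FPKM).

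Bnip3 and Bnip3l (also called Nix) encode related proteins of the outer mitochondrial membrane that tether mitochondria to the autophagy machinery and so mark them for removal. Bnip3 lies on chromosome 7, minus strand, from 138890836 to 138909519 (GRCm38). Its WT libraries, in the order of their replicate numbers as everywhere here, held 205, 211 and 204 FPKM, and its KO libraries 38.8, 39.6 and 44.0. The 3 libraries of each group lie close together, and the KO level was 19.7% of that in WT (207 ± 3.68 against 40.8 ± 2.77 FPKM, mean ± SD, n = 3 libraries). On the scale log2(FPKM + 0.5), used throughout for differences, KO minus WT was -2.33. Bnip3l (chromosome 14, 66985239 to 67008877, minus strand) stood at 119, 121 and 122 FPKM in WT against 52.3, 51.7 and 73.8 in KO. KO replicate 3 was high, and the spread over the KO libraries was 21.2% of their mean against 1.39% in WT. The difference was smaller than that of Bnip3. The KO mean was 2.04-fold lower, with a log2 difference of -1.04, or -1.21 without KO replicate 3.

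The order of the pair was different in the 2 groups. Bnip3 exceeded Bnip3l in every WT library, with a ratio of levels of 1.72 ± 0.04, and was below it in every KO library, with a ratio of 0.70 ± 0.09. A ratio within a library stays the same when all values of that library are multiplied by the same factor. Quantile normalization can change it, and which gene stands higher also rests on the transcript lengths used for FPKM. The ratios show that the genes differed unequally between the groups, not that either was steady.

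Higd1a and Fam162a encode small mitochondrial proteins. Higd1a is known to associate with the respiratory chain and to favour survival in low oxygen, and Fam162a (growth and transformation-dependent protein) has been tied to hypoxic cell death. Higd1a (chromosome 9, 121848563 to 121858362, minus strand) stood at 53.5, 144 and 120 FPKM in WT against 8.63, 9.0 and 8.38 in KO. WT replicate 1 stood far below the other 2, while the KO libraries were nearly level. The mean WT level was 12.2 times that in KO, and the ratio ran from 5.94 (lowest WT over highest KO) to 17.2 (highest WT over lowest KO). The log2 difference of -3.41 was the lowest of the 10 genes and ranked 68 from the lowest among the 10515 tested rows; it was -3.84 without WT replicate 1. Reads of this gene may be shared with Gm9790, a row whose transcript matches that of Higd1a at 99.3% identity over 288 bases. Gm9790 stood at 7.07, 6.64 and 7.40 FPKM in WT against 1.47, 1.16 and 0.874 in KO, between 4.61% and 17.0% of the Higd1a level in the same library. Gm9790 was not low in WT replicate 1. The antisense gene Gm47112 overlaps Higd1a and matches it at 100% identity over 683 bases. It had no row of its own name and was not read.

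Fam162a (chromosome 16, 36043761 to 36071594, minus strand) had the highest WT level of the 10, at 871, 929 and 942 FPKM, against 124, 138 and 115 in KO. No value of one group came near the other: the lowest WT library was 6.34 times the highest KO library. The means were 914 ± 37.7 in WT and 125 ± 11.4 FPKM in KO, a log2 difference of -2.86. By level Fam162a ranked 99 among tested rows in WT and 469 in KO.

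Ero1l encodes the oxidase of the endoplasmic reticulum that passes oxidizing power to protein disulfide isomerase. The gene (chromosome 14, 45283087 to 45318771, minus strand) stood at 788, 818 and 797 FPKM in WT against 152, 143 and 161 in KO. Spread between libraries was small in both groups, and the KO mean was 19.0% of the WT mean (801 ± 15.5 against 152 ± 8.99 FPKM; log2 difference -2.40). Fam162a was above Ero1l in every WT library (ratio 1.14 ± 0.04) and below it in every KO library (0.83 ± 0.13), so Ero1l was the highest of the 10 in KO.

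Adm and Vegfa encode secreted peptides. Adrenomedullin, the product of Adm, widens blood vessels, and vascular endothelial growth factor A drives their growth. Adm (chromosome 7, 110627661 to 110629820, plus strand) stood at 138, 140 and 157 FPKM in WT against 29.0, 33.0 and 33.2 in KO, 4.58-fold lower on the means (log2 difference -2.18). Vegfa (chromosome 17, 46016993 to 46032369, minus strand) stood at 95.6, 99.0 and 91.5 FPKM in WT against 40.1, 44.1 and 46.3 in KO, 2.19-fold lower (log2 difference -1.12). In both genes the libraries of a group stayed within a narrow band. Adm was the higher of the 2 in WT, with Vegfa at 0.66 ± 0.07 of its level, and Vegfa was the higher in KO, at 1.37 ± 0.03 times Adm. The plot of ratios shows this exchange of order beside those of the other pairs.

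**Figure D2:**
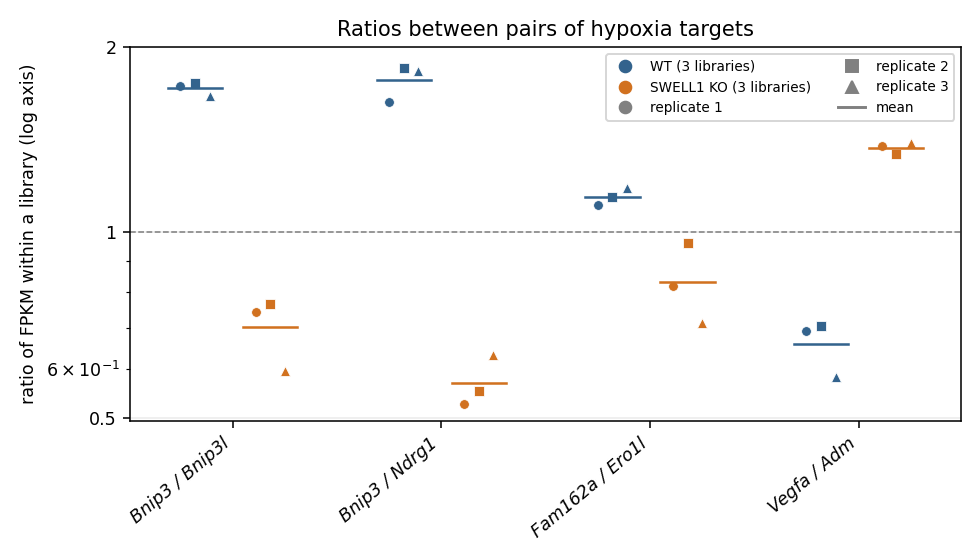
Ratio of the FPKM of 2 genes within each library (log axis) for 4 pairs, WT in blue and SWELL1 KO in orange, with marks for replicates and lines for means. The dashed line marks equal levels; for Bnip3 over Bnip3l, Bnip3 over Ndrg1 and Fam162a over Ero1l the WT libraries lie above it and the KO libraries below it, and for Vegfa over Adm the reverse.

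Bhlhe40 encodes a transcriptional repressor that also acts on the circadian clock, and Ndrg1 a stress-induced cytoplasmic protein linked to growth arrest and lipid handling. Bhlhe40 (chromosome 6, 108660629 to 108666925, plus strand) stood at 84.7, 71.8 and 68.9 FPKM in WT against 21.8, 21.5 and 22.3 in KO. WT replicate 1 was the high one, and the KO libraries were nearly level, with a mean 3.44-fold under that of WT (log2 difference -1.75). Ndrg1 (chromosome 15, 66929318 to 66969640, minus strand) differed least, from 126, 114 and 111 FPKM in WT to 73.8, 71.7 and 69.7 in KO. It kept 61.2% of the WT level (log2 difference -0.70), and its groups still did not overlap. Bnip3 was 1.77 ± 0.12 times as high as Ndrg1 in WT and 0.57 ± 0.05 times in KO.

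Ak4 encodes a mitochondrial adenylate kinase, one of the enzymes that balance AMP, ADP and ATP. It was the lowest of the 10 in both groups. Ak4 (chromosome 4, 101419277 to 101466995, plus strand) stood at 13.2, 13.9 and 13.5 FPKM in WT against 2.91, 3.47 and 2.99 in KO, 4.34-fold lower on the means (log2 difference -1.96). At the estimated depths and the length of its longest coding transcript, the lowest Ak4 value rests on about 240 fragments, so even this value stands on many fragments.

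The order of the levels differed between the groups. In WT it ran Fam162a, Ero1l, Bnip3, Adm, Bnip3l, Ndrg1, Higd1a, Vegfa, Bhlhe40 and Ak4. Bnip3l and Ndrg1 overlapped there, and Higd1a, with its low first library, overlapped Adm, Bnip3l, Ndrg1, Vegfa and Bhlhe40. In KO it ran Ero1l, Fam162a, Ndrg1, Bnip3l, Vegfa, Bnip3, Adm, Bhlhe40, Higd1a and Ak4, where Ndrg1 overlapped Bnip3l and Vegfa overlapped Bnip3. Ndrg1 took the third place in KO against the sixth in WT. Together the 10 genes made up 0.515% ± 0.009 of the FPKM sum in WT and 0.098% ± 0.006 in KO. With AC166252.2 left out of the sum the KO share was 0.121% ± 0.0045, against 0.519% ± 0.012 in WT. KO replicate 3 was the highest KO library for 6 of the 10 genes, and WT replicate 1 the lowest WT library for 6. The median spread of the genes over the libraries of a group was 4.04% of the mean in WT and 7.01% in KO, beside 6.37% and 6.58% over the 9911 tested rows with no library at 0.

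The other genes of the pathway were read from lists that do not hold these 10 and were tested with limma over all rows. These lists too were drawn up with earlier results of these data known, so their counts are a description. Of all tested rows, 65.2% passed at an adjusted p of 0.05, 36.7% lower and 28.5% higher in KO, with a median log2 difference of -0.07. The split depends on scaling: 3862 rows were lower and 2998 higher as deposited, 3492 and 3331 after median-ratio scaling, and 3386 and 3423 after quantile normalization. The median of the 10 genes was -2.07. Among other HIF targets outside glycolysis, 18 of 27 tested genes fell and 2 rose, with a median of -1.02. Under quantile normalization 18 fell and 5 rose. The prolyl hydroxylases of collagen P4ha1 (314 ± 1.67 to 77.5 ± 10.3 FPKM, limma adjusted p = 2.04e-05) and P4ha2 (146 ± 0.74 to 34.2 ± 2.85, limma adjusted p = 5.71e-06) fell 4.05-fold and 4.27-fold. The lipoprotein receptor gene Vldlr fell 23.5-fold and the glycoprotein hormone gene Stc1 4.12-fold. The nitric oxide synthase gene Nos2 fell from 16.5 ± 0.43 to 0.21 ± 0.08 FPKM, a log2 difference of -4.59 whose size depends on the pseudocount at so low a KO level. The limma adjusted p of these 3 was at most 0.000485. Ankrd37 stood at 12.5, 11.5 and 12.1 FPKM in WT and was listed at 0 in all KO libraries. A listed 0 in this table can be a failed estimate, which also bears on its place among the 18 that fell. Car12, a carbonic anhydrase gene, stood at 2.88, 2.85 and 3.10 in WT and at 0, 0 and 0.0299 in KO. The direction was not shared by the whole list. The 2 that rose, named for that after their values were seen, were Angptl4, an inhibitor of lipoprotein lipase that also answers to fatty acids (20.9 ± 3.46 to 73.0 ± 8.67 FPKM, limma adjusted p = 0.000145), and the transferrin receptor gene Tfrc (2.23 ± 0.34 to 3.30 ± 0.28, limma adjusted p = 0.0116).

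Of 16 tested glycolytic HIF targets 12 fell and 2 rose, with a median of -1.44, beside 36.7% lower and 28.5% higher over all rows. The largest differences past the threshold were those of Slc2a1 (6.47-fold), Hk2 (6.27-fold), Pfkfb3 (5.43-fold), Tpi1 (3.98-fold), Pgam1 (3.78-fold) and Ldha (3.27-fold), all lower in KO. Hk1 rose 1.23-fold and Pfkfb4 1.6-fold, both named after their values were seen.

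Among the HIF subunits and the oxygen sensors 5 of 6 tested genes fell, with a median of -1.25. Over all rows 36.7% were lower and 28.5% higher. Hif1a, the main alpha subunit gene, stood at 162, 213 and 170 FPKM in WT against 58.0, 62.0 and 64.7 in KO (limma adjusted p = 7.95e-05). Epas1, the gene of the second alpha subunit, was at most 0.569 FPKM in WT and listed at 0 in KO, and Hif3a reached at most 0.255 FPKM in any library. The hydroxylase genes Egln1 and Egln3, themselves HIF targets, fell 3.66-fold and 17.4-fold, and Vhl 1.87-fold. Arnt2 fell from 1.52 ± 0.07 to 0.54 ± 0.11 FPKM, and Hif1an was at 7.37 ± 0.46 and 8.02 ± 0.22 (limma adjusted p = 0.14; 0.0345, higher in KO, under median-ratio scaling). Arnt and Egln2 were not analysed here. HIF is regulated mainly as protein, which was not measured.

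**Figure D3:**
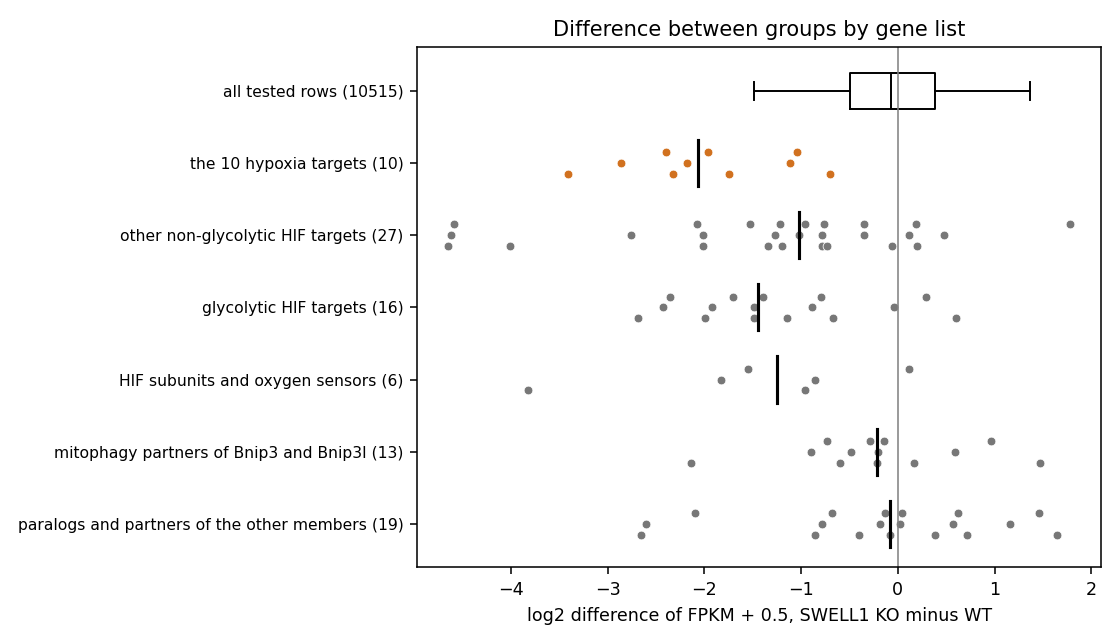
Difference between the groups, SWELL1 KO minus WT on the scale log2(FPKM + 0.5), for all 10515 tested rows (box from the lower to the upper quartile, whiskers at the 5th and 95th percentiles, line at the median), for the 10 genes (orange) and for the tested genes of each list (grey, black line at the median). The 10 genes lie between -3.41 and -0.70, and the medians of the mitophagy and partner lists, -0.22 and -0.08, are nearest that of all rows.

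Of 13 tested mitophagy genes that work beside Bnip3 and Bnip3l, 6 fell and 3 rose, and the median was -0.22. Over all rows 36.7% were lower and 28.5% higher, and nothing particular to this list is read from its counts. The ATG8 gene Map1lc3a fell from 139 ± 1.95 to 31.3 ± 1.24 FPKM (limma adjusted p = 1.52e-06), and Gabarapl1, another ATG8 gene, fell 1.52-fold. Rheb, a GTPase that binds Bnip3, fell 1.86-fold, and the mitophagy receptor gene Bcl2l13 1.72-fold. In the other direction the autophagy adaptor gene Sqstm1 rose from 181 ± 5.25 to 352 ± 22.6 FPKM (limma adjusted p = 3.73e-05), and Bcl2, which encodes a survival protein bound by Bnip3, rose from 0.40 ± 0.07 to 1.99 ± 0.11. The adaptor gene Optn, named after its value was seen, rose 1.54-fold. Fundc1, a receptor that low oxygen engages by phosphorylation changes, was at 22.1 ± 1.91 and 20.0 ± 0.93 FPKM (limma adjusted p = 0.149; 0.0263 without WT replicate 1). The kinase gene Pink1 was at 18.7 ± 1.82 and 21.0 ± 0.80 (limma adjusted p = 0.105; 0.0224 under quantile normalization, 0.045 under median-ratio scaling and 0.0315 without WT replicate 1).

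The receptors for the 2 secreted products moved in both directions. Calcrl, the receptor chain for adrenomedullin, rose from 2.17 ± 0.06 to 6.86 ± 0.33 FPKM (limma adjusted p = 1.25e-05). Ramp3, 1 of the accessory proteins that give this chain its preference for adrenomedullin, fell from 119 ± 9.21 to 27.3 ± 1.35 (limma adjusted p = 6.87e-06), a 4.35-fold difference beside the 4.58-fold one of Adm. Ackr3, a scavenger receptor that also takes up adrenomedullin, fell 1.74-fold. Ramp2 shared its row with Vps25 and was not read, and Ramp1 and the related peptide gene Adm2 were at most 0.171 FPKM in any library.

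In the VEGF family Vegfa stood alone in its direction among the ligands measured. Vegfc rose from 6.29 ± 0.26 to 10.6 ± 0.71 FPKM (limma adjusted p = 0.000223), and Pgf, the gene of placental growth factor, rose from 0.24 ± 0.07 to 1.80 ± 0.16 (limma adjusted p = 0.000102). Vegfa remained the highest of the 3 in every library. Vegfb and Vegfd were not analysed here. The co-receptor genes Nrp1, whose row also names Mir1903, and Nrp2 rose 1.51-fold and 2.27-fold. Flt1, the receptor gene for VEGF-A and placental growth factor, was at 0.73 ± 0.09 and 0.62 ± 0.04 FPKM (limma adjusted p = 0.36), and Kdr and Flt4 were at or near 0 throughout.

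Paralogs and partners of the remaining genes were read in the same way. Bhlhe41, the close relative of Bhlhe40, fell from 6.42, 2.30 and 7.18 FPKM in WT to 0.456, 0.301 and 0.347 in KO (limma adjusted p = 0.00176). Of the clock genes that these repressors act on, Arntl rose 1.65-fold and Clock was at 6.14 ± 0.33 and 6.25 ± 0.39 FPKM (limma adjusted p = 0.773). Ak3, the mitochondrial relative of Ak4, was at 26.9, 22.7 and 25.5 FPKM in WT against 24.2, 22.9 and 30.6 in KO, overlapping groups (limma adjusted p = 0.788). Ndrg2 stood at 2.84, 2.78 and 2.53 FPKM in WT against 0.0255, 0 and 0 in KO, Ndrg3 fell 1.32-fold, and Ndrg4 was at 27.2 ± 1.90 and 25.7 ± 0.55 (limma adjusted p = 0.284). Beside Ero1l, its partner P4hb (protein disulfide isomerase) fell 1.61-fold, the peroxiredoxin gene Prdx4 rose 1.3-fold, and the paralog Ero1lb was at 2.72 ± 0.22 and 2.36 ± 0.46 (limma adjusted p = 0.295). Over this list of paralogs, receptors and partners 7 of 19 tested genes fell and 7 rose, with a median of -0.08, beside 36.7% lower and 28.5% higher over all rows. Higd1b, Fam162b and Ak5 were listed at 0 in every library.

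**Figure D4:**
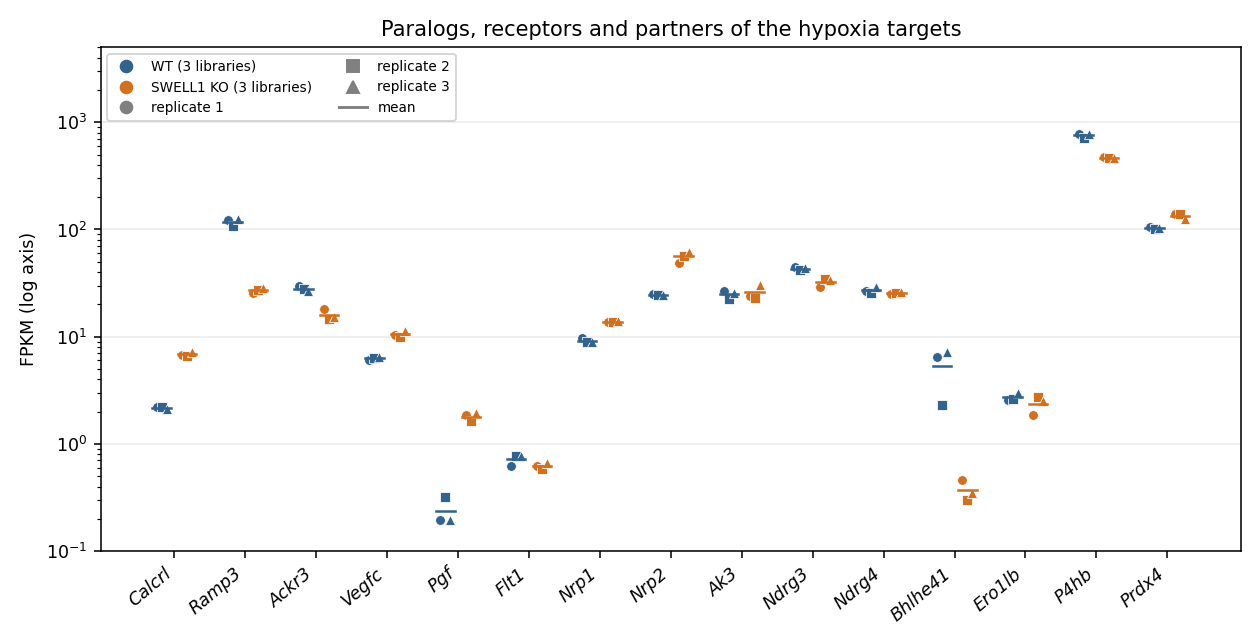
Level in FPKM (log axis) of 15 paralogs, receptors and partners in the 3 WT libraries (blue) and the 3 SWELL1 KO libraries (orange), with marks for replicates and lines for means. Ramp3 and Bhlhe41 lie lower in KO, Calcrl, Vegfc, Pgf, Nrp1 and Nrp2 lie higher, and Ak3, Ndrg4, Flt1 and Ero1lb overlap between the groups.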

How the data were processed

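The authors made the deposited values, read here as FPKM, with TopHat and Cufflinks 2.02 on GRCm38, per the submitters' processing notes. Their settings and annotation are not given. The table names no unit; FPKM is inferred from Cufflinks and from the values. Rows shared with another gene were left out of the lists, but those of Nrp1 (with Mir1903), Phb2 (with snoU89) and Aldoa (with Gm15676) were kept. Depth was estimated from the worth of 1 fragment in 1240 genes with 1 transcript of at least 2500 bases.

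Values were used as deposited. The 10515 rows whose mean over all 6 libraries reached 0.5 FPKM entered limma 3.58.1 (R 4.3.3) as log2(FPKM + 0.5) (mean-variance trend, two-sided, Benjamini-Hochberg over all tested rows, threshold 0.05). The step was also run on simulated data in which far fewer rows differed than passed here. That run therefore does not vouch for the calls in these data. Fold changes are ratios of mean FPKM. Same-numbered libraries did not deviate together (r from -0.0932 to 0.0116), so replicates were not paired. Positions are from GENCODE M21 (GRCm38), and near-identical transcripts were sought with BLAST 2.17.0 (at least 90% identity over 200 bases). Whether strand was kept is not given. Genes on the opposite strand that overlap Bnip3, Higd1a, Fam162a, Adm, Bhlhe40 and Ndrg1 were therefore not told apart. The gene that overlaps Fam162a is the protein-coding Wdr5b.

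The 10 genes, the lists and the tests were chosen with earlier results of these data known. Beside the 10 genes, all tested paralogs, receptors and partners could be named, every gene of a list of 10 or fewer, and in other lists the 6 largest differences past the threshold with no library at 0. Genes listed at 0 are given by library. Fundc1, Pink1, Eno1 and Phb2 were named outside this rule, as were the genes marked as named after their values were seen. Some genes that this rule names are counted in their lists but not reported here. Tables were read with pandas 2.3.3 in Python 3.11.15 and plots drawn with matplotlib 3.10.9.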

Additional observations from a re-analysis of the deposited data

How the results depend on the processing

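Pseudocounts of 0.1 and 1, no filter on low values, a mean of at least 2 FPKM, median-ratio scaling, quantile normalization, the replicate block and leaving out each library in turn were tried. All 10 genes stayed lower in KO without overlap of the groups after median-ratio scaling and after quantile normalization. The other settings could not have made the groups of these genes overlap, since they keep the library values or only remove a library. Under each setting, each count of falling genes stayed within 1.5 times its value. Counts of rising genes moved more: other targets outside glycolysis went from 2 to 5 under quantile normalization, and HIF subunits and sensors from 0 to 1 under median-ratio scaling or with no filter. The lowest and highest log2 difference were -3.84 and -3.13 for Higd1a, -2.38 and -2.11 for Bnip3, -1.21 and -0.83 for Bnip3l, -1.17 and -0.91 for Vegfa, and -0.74 and -0.48 for Ndrg1, the highest of the last 3 under quantile normalization. The number of the 10 genes at least 2-fold lower thus depends on scaling. Bnip3l fell short of 2-fold after median-ratio scaling (-0.97), and Bnip3l and Vegfa did after quantile normalization. With the replicate block, which the numbers do not call for, 6534 rows passed against 6860, and 18 other targets outside glycolysis still fell. Among 81 other list genes, 16 results of 9 genes passed under an alternative alone, among them Eno1 without KO replicate 2 (adjusted p = 0.00217), and 1 was lost, that of Phb2 under quantile normalization (adjusted p = 0.123). All 7 genes with a promoter window kept a match in at least 1 window when only the 250 bases before the start were read or when CACGTG was left out. Values under 1 FPKM rest on few fragments.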

Other observations

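The genes that flank the 10 on their chromosomes were read as well. Of the 20 nearest protein-coding neighbours, 1 on each side, 12 were tested; 5 fell and 4 rose (limma adjusted p below 0.05), with a median log2 difference of -0.16, beside 36.7% lower and 28.5% higher over all rows. Ppp2r2d beside Bnip3 was at 15.7 ± 2.72 FPKM in WT and 16.5 ± 2.67 in KO (limma adjusted p = 0.697), and Psmc6 beside Ero1l rose from 112 ± 4.13 to 132 ± 7.42 (limma adjusted p = 0.00814). Sbf2 beside Adm fell from 23.6 ± 0.49 to 13.4 ± 0.26 (limma adjusted p = 2.1e-05), and Ampd3 on its other side rose from 50.3 ± 5.22 to 68.1 ± 3.60 (limma adjusted p = 0.00469). These 4 were named after their values were seen.

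Ccdc58 starts 91 bases from the end of Fam162a that carries its promoter. It was listed at 0 in all 3 WT libraries and stood at 22.8, 18.1 and 14.3 FPKM in KO, while Fam162a stood at 871 to 942 FPKM in WT and at 115 to 138 in KO. A listed 0 in this table can be a failed estimate, and whether reads of one row were counted in the other was not tested.

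Most near-identical copies of the other genes had no row of their own name and were not read. Of those read, Gm16439, which matches Bnip3 at 98.9% identity over 564 bases, was at most 0.935 FPKM, and Ak3l2-ps, which matches Ak4 at 99.6% over 672 bases, at most 0.471. Gm14506 (Bnip3) and Gm17035 (Ndrg1) were listed at 0 in every library.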
